A study of Canis lupus familiaris with 5 samples.

Results

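Hemoglobin carries oxygen in red blood cells and myoglobin holds oxygen inside heart and slow skeletal muscle. Their transcripts were followed in canine heart muscle by taking every probe set whose single gene symbol in the platform annotation was HBB, HBA1, HBA2 or MB. The rule found 4 probe sets of 3 genes, among 3724 probe sets with 1 symbol (2416 genes) and 4653 probe sets in all. HBB, the adult beta chain of hemoglobin, had 2 probe sets (31687_f_at and HSPD512_f_at). HBA1, an alpha chain, had 1 (HSPD17_at), and so had MB, myoglobin (HSPD340_at). No probe set was paired with HBA2 alone, so that gene was not analysed here.

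The samples were RNA of dog myocardium on 5 oligonucleotide arrays, labelled control on 2 (1a and 2a) and as congestive heart failure on 3 (failing 1a, 1b and 2a). All carry the labels of the same tissue and species, and no strain, age, drug or means of inducing failure is given in the sources used here. Each array except control 1a, whose pool is not described, held RNA pooled from 3 dogs. Nothing states that failing 1a and 1b came from different animals, so p-values measure the spread between arrays, which may be technical. Values are the deposited linear intensities, and 5 arrays limit their precision.

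Hemoglobin is a tetramer of alpha and beta chains, each with an oxygen-binding heme, and its transcripts lie in red cell precursors and in young circulating red cells. In a piece of heart they therefore stand mainly for the blood it held. Myoglobin is a single chain with a heme, made by the muscle cells themselves. It stores oxygen between beats, eases its passage to the mitochondria and removes nitric oxide. The annotation is of human genes while the RNA was canine, so a probe set shows changes of its own signal between arrays, and its level is not set against that of another. In Affymetrix naming, the ending _f_at of both HBB probe sets marks a set shared by a sequence family, so other beta-like globins could add to them. HBA1 and HBA2 encode the same protein in humans and one probe set cannot tell them apart.

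Failing 2a stood apart from every other array. Across the 1449 genes bright enough to be tested, its median absolute log2 difference from failing 1a and 1b was 0.81 and 0.82, against 0.31 between those 2 and 0.41 between the controls. The deposited arrays share a trimmed mean of 800, but over all tested genes the median log2 fold change was 0.15, so members are also given against other scalings below. The 3′ to 5′ signal ratio of the GAPDH array control, a ratio often read as RNA quality, was 2.15 and 2.32 on the control arrays and 1.32 to 1.44 on the failing arrays. That of the actin control overlapped, at 0.090 and 0.108 in control and 0.192, 0.087 and 0.205 on failing 1a, 1b and 2a. The GAPDH ratio thus moves with the group, the actin ratio does not separate it, and their part in the results was not tested. Each ratio sets 1 probe set against another in dog RNA, so whether it reflects RNA quality here is not known. Of the 21 heart muscle markers on the array, 20 were tested, among them troponin C (TNNC1) at 33991 ± 420 (SD, n = 2) in control and 34631 ± 2250 (SD, n = 3) in failing samples. The brighter of 2 probe sets annotated to MYH7, the beta myosin heavy chain, was below 0 on both control arrays and on failing 2a. It gave no level there. Whether it and the probe set annotated to MYH6, the alpha chain, tell these chains apart in dog RNA was not tested.

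Myoglobin signal was lower on all failing arrays than on both control arrays, at 0.704-fold on average. One HBB probe set was higher on all failing arrays, at 1.92-fold, while the other HBB probe set and HBA1 overlapped between the groups. None of the 3 genes passed the test after adjustment over all genes. The 3 hemoglobin probe sets pointed in different directions.

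The alpha chain comes first, as the brightest hemoglobin probe set by its mean log2 intensity. Its intensity was 4297 on control 1a and 1856 on control 2a, and 2279.7, 2657 and 3365 on failing 1a, 1b and 2a. The highest and the lowest of the 5 values were both controls, 2.32-fold apart, and the 3 failing arrays lay between them within a 1.48-fold range. The mean was 3077 ± 1726 (SD, n = 2) in control and 2767 ± 551 (SD, n = 3) in failing samples. HBA1 had a log2 fold change of −0.05 ± 0.42 (SE), with an adjusted p of 0.980 in limma with Benjamini-Hochberg adjustment. The 95% interval of that difference ran from −1.11 to 1.01, so changes of up to about 2-fold either way lay within it. Without control 1a the log2 fold change was 0.56 and without control 2a it was −0.65. Without failing 1a it was 0.08, so the direction of HBA1 rested on single arrays of either group.

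The brighter HBB probe set, 31687_f_at, read 973 on control 1a and 1445 on control 2a. On failing 1a, 1b and 2a it read 3059.5, 1767 and 2184. All failing arrays lay above both controls, and failing 1b was nearest to them. From a mean of 1209 ± 334 (SD, n = 2) to 2337 ± 660 (SD, n = 3), the log2 fold change was 0.94 ± 0.37 (SE). Its limma p was 0.0471 before and 0.464 after adjustment, and the 95% interval ran from 0.02 to 1.87. The 1.73-fold gap between failing 1a and 1b, a log2 of 0.79, exceeded the median of 0.31 for all genes on that pair.

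The dimmer HBB probe set, HSPD512_f_at, read 772 on control 1a, 1363 on control 2a, 1046 on failing 1a, 173 on failing 1b and 1427 on failing 2a. Failing 1b was the lowest and failing 2a the highest, with both controls between them. Failing 1a exceeded failing 1b by 6.04-fold, a gap at least matched by 5.87% of the tested probe sets on that pair. The log2 fold change was −0.69 ± 1.01 (SE), with an adjusted p of 0.861 in the limma fit over 2301 probe sets and a 95% interval from −3.23 to 1.85. Without failing 1b it was 0.25, so the direction of this probe set came from that array.

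The 2 HBB probe sets thus pointed in opposite directions, with log2 fold changes 1.63 apart. Averaging them gave a log2 fold change of 0.13 for HBB (adjusted p = 0.958 in limma), in place of 0.94. Such disagreement was common in this table. Of 357 genes with at least 2 tested probe sets, the brightest and the next went opposite ways in 164 (45.9%), and 91 differed by more than HBB did. On control 2a both HBB probe sets were higher than on control 1a, while HBA1 was lower there. HBB exceeded its control mean by a log2 of 1.37 on failing 1a at the brighter probe set and by 0.03 at the dimmer, while HBA1 was at −0.31.

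**Figure D1:**
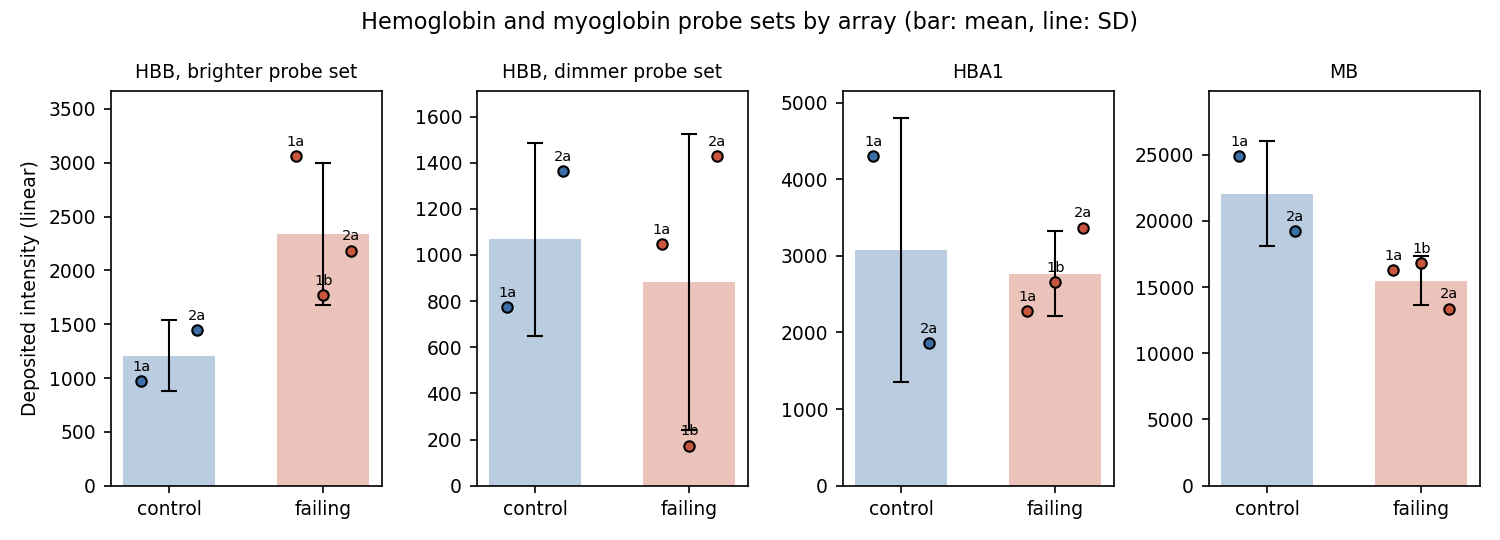
Deposited linear intensity of the 4 probe sets on each array, with the vertical axis from 0 in every panel. Bars are group means, lines are SDs over 2 control and 3 failing arrays, and points are single arrays. The failing arrays lie above both controls at the brighter HBB probe set and below both at MB, and the groups overlap at the dimmer HBB probe set and at HBA1.

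Within each array, the difference between the log2 signals of 2 probe sets does not depend on the scaling of that array. Differences of this kind were chosen after the values were seen, 7 in all, and tested by two-sided exact permutation of the arrays. With 2 arrays against 3, such a test cannot give a p below 0.2. The log2 signal of the brighter HBB probe set minus that of HBA1 was 0.99 higher in failing samples (exact p = 0.6, adjusted 0.8). For the dimmer one minus HBA1 the value was −0.64 (exact p = 0.8, adjusted 0.8). The control arrays alone were 1.78 and 2.03 apart in these differences. The alpha and beta signals thus differed from each other between the controls by more than they differed between the groups.

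MB had an intensity of 24873 on control 1a and 19233 on control 2a. Failing 1a, 1b and 2a read 16283, 16817 and 13359.8. All failing arrays lay below both controls, failing 2a lowest, and failing 1a and 1b differed by a log2 of only 0.05, less than the 0.31 of all genes on that pair. The gap from control 2a to failing 1b, the nearest arrays across the groups, was smaller than the gap between the 2 controls. The group means were 22053 ± 3988 (SD, n = 2) and 15486 ± 1861 (SD, n = 3). The log2 fold change of MB was −0.51 ± 0.20 (SE), with a limma p of 0.0499 before and 0.472 after adjustment. Its 95% interval, from −1.01 to −0.0003, reached almost to 0. Bulk RNA cannot tell fewer muscle cells from less MB RNA in each.

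A change of this size was ordinary here, since 50.2% of all tested genes had a log2 fold change at least as large. The SE was small by comparison, with only 5.25% of genes having a smaller one. The fit draws each SE toward that of genes of similar brightness, so it is not a measure of MB alone. HBB was exceeded or matched by 27.1% of genes and HBA1 by 94.0%. Of the 1449 genes, 0.069% (1 gene) passed the adjusted threshold of 0.05 in limma, and 0 of the 3 members did. At an unadjusted p under 0.05 stood 1 member higher (HBB) and 1 lower (MB), against 6.9% higher and 3.59% lower of all genes. All failing arrays above both controls was found for HBB and for 19.5% of genes. All failing arrays below both controls was found for MB and for 11.8% of genes. The limma fit without an intensity trend also called 0 of the 3 members. In that fit the unadjusted p was 0.155 for MB and 0.066 for HBB.

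**Figure D2:**
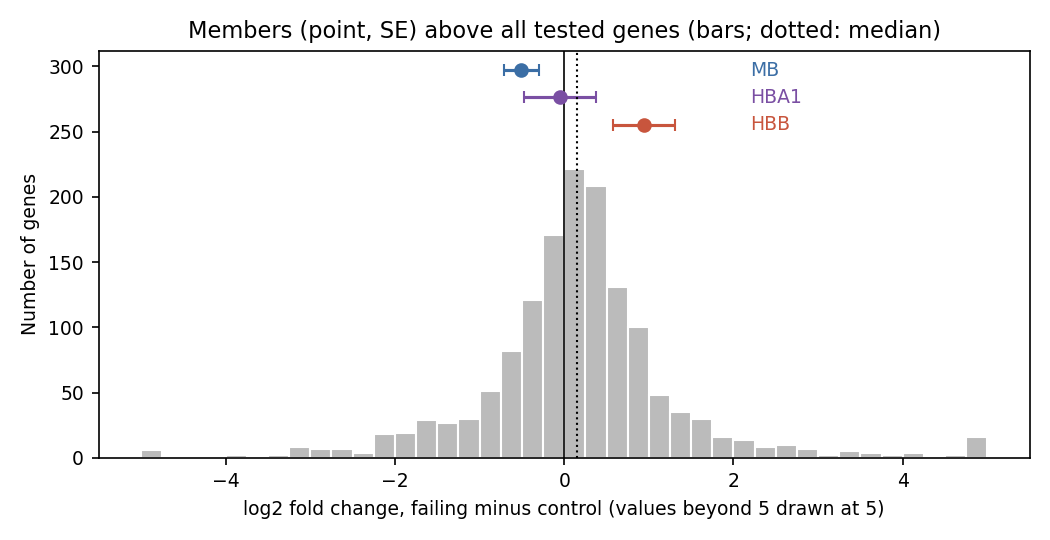
Log2 fold changes of HBB, HBA1 and MB (points, with SE) above the distribution over all 1449 tested genes (bars, number of genes per bin; dotted line, their median of 0.15). HBB lies at 0.94, HBA1 at −0.05 and MB at −0.51, all within the body of the distribution.

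Scaling moved the members by as much as a log2 of 0.21 without turning any of them. With quantile normalization MB had a log2 fold change of −0.31, and its groups then overlapped, at 22022 and 18307 in control against 19076, 17012 and 13084 in failing samples. With each array divided by its 75th percentile, MB had −0.71 and the groups stayed apart. HBB kept all failing arrays above the controls under both of these scalings, with 0.74 in each. Scaled to the heart muscle markers, HBB had 0.73 and its groups overlapped, at 975 and 1722 in control against 2836, 1555 and 2241 in failing samples. Without failing 2a, the array that stood apart, HBB had 0.97, HBA1 −0.20, the dimmer HBB probe set −1.27 and MB −0.40. That fit rests on failing 1a and 1b alone.

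MB was then set against other genes of the heart muscle cell. The 18 markers above the floor of 20 on all arrays gave a mean log2 signal per array. MB minus that mean, relative to control, was 0.06 and −0.06 on control 1a and 2a and −0.66, −0.69 and −0.80 on failing 1a, 1b and 2a. The failing arrays lay well below both controls and close to each other, 0.72 lower on average (exact permutation p = 0.2, the smallest possible, adjusted 0.35). MB thus had a lower signal in failing samples relative to this mean, which shows unequal change and not which of them changed. Relative to the median of all tested genes the difference for MB was −0.72 (exact permutation p = 0.2, adjusted 0.35). For the brighter HBB probe set that difference was equal in size, 0.72 (exact p = 0.2, adjusted 0.35), and for HBA1 −0.26 (exact p = 0.8, adjusted 0.8). The brighter minus the dimmer HBB probe set gave 1.63 (exact p = 0.2, adjusted 0.35).

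The markers themselves went both ways. Among the 20 tested, 6 were higher and 5 lower on all failing arrays (19.5% and 11.8% of all genes), 0 passed the adjusted threshold, and their median log2 fold change was 0.09, near the 0.15 of all genes. That median depended on failing 2a, and without this array it was 0.29. Per array, relative to control, the list median was 0.27 and 0.32 on failing 1a and 1b and −0.26 on failing 2a. MB lay below 14 of the markers and above 6. Of the 5 brightest, the alpha myosin heavy chain gene MYH6 (−0.54 ± 0.18, SE) and the myosin light chain gene MYL3 (−0.55 ± 0.19) had log2 fold changes near that of MB. The intermediate filament gene DES had 0.87 ± 0.32, while the thin filament genes TNNC1 and TPM1 had 0.02 ± 0.15 and −0.04 ± 0.34. The second probe set of MYL3 also went down, and that of TNNC1, at −0.05, went opposite to the first. That of TPM1 had −1.87, with 522, 6727 and 189 on failing 1a, 1b and 2a. TTN, the titin gene, had −0.62 ± 0.25, while its 3 other tested probe sets were above 0. DES also marks smooth muscle, whose markers summed to 30599 to 53650 in control and 60683 to 85619 in failing samples, mostly from DES itself. The other tested smooth muscle markers went both ways. TAGLN was lower on all failing arrays (−1.01 ± 0.34) and LMOD1 higher on all (0.95 ± 0.39). The summed signal of the heart muscle markers overlapped, at 245390 to 291540 in control and 251017 to 320106 in failing samples. Skeletal muscle markers summed to 7042 to 8116 in control and 8669 to 14692 in failing samples, with MYOD1 and PVALB below the floor on all arrays. The highest sum was on failing 1b, where ACTN3 read 6971, against −1325 on failing 2a. TNNC2 was higher on all failing arrays (0.81 ± 0.26). Of the 8 tested skeletal muscle markers, 5 had log2 fold changes above 0 and 3 below. The part of these markers in the MB result was not tested.

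**Figure D3:**
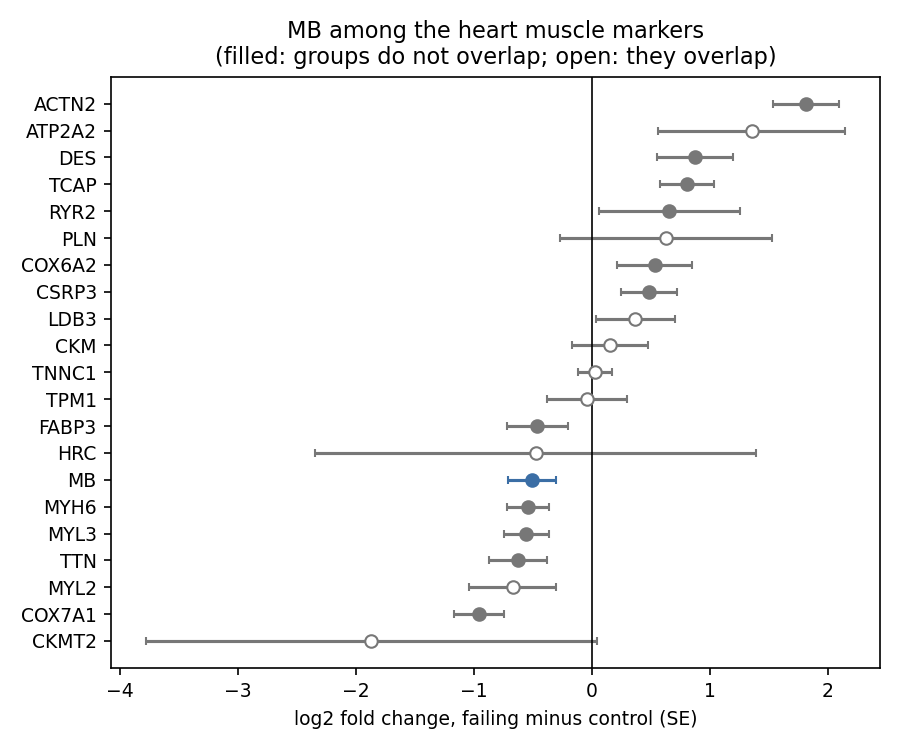
Log2 fold change, failing minus control, with SE, of MB (blue) and the 20 tested heart muscle markers (grey). Filled points are genes whose groups do not overlap and open points are genes whose groups do. MB at −0.51 sits between HRC and MYH6 in the lower part of a list that runs from −1.87 to 1.81.

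Control of the MB gene involves MEF2 factors, the calcineurin and NFAT pathway and hypoxia-inducible factors. Of 19 such regulators, 7 were on the array and 3 were tested. MEF2C, a muscle transcription factor, read 1593 and 1346 in control and 2386, 2258 and 2377 in failing samples, so that all failing arrays were higher. Its log2 fold change was 0.68 ± 0.25 (SE, limma adjusted p = 0.457), opposite in sign to that of MB, and its 3 other tested probe sets were also above 0. MEF2D had 1.88 ± 1.18 and HIF1A, the oxygen-regulated subunit, 0.20 ± 0.61, both with overlapping groups. The serum response factor gene SRF was far below 0 on every array and gave no level.

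Myoglobin and hemoglobin both bear on oxygen supply, so oxygen sensing and hypoxia target genes were counted too. Of 40, 15 were on the array and 13 tested, with a median log2 fold change of 0.20 beside 0.15 for all genes. None passed the adjusted threshold in limma, and 1 was higher at an unadjusted p under 0.05 (ENO1). All failing arrays were above control in 5 of the 13 and below in 2, against 19.5% and 11.8% of all genes. The 5 were ADM, VEGFA, ENO1, ALDOA and HK2, named after their values were seen, and the 2 were GAPDH and TPI1. ENO1, the glycolytic enolase, had 1.50 ± 0.49 and GAPDH −0.67 ± 0.34, so glycolytic targets went both ways. The other tested VEGFA probe set was opposite to the first, and so was 1 of 2 for TPI1. Of the 5 brightest, DDIT4 had 0.17 ± 0.25, ALDOC −0.57 ± 0.36 and SLC2A1, the glucose transporter, 0.20 ± 0.91. The list median per array was 1.03 above control on failing 2a against 0.06 and 0.11 on failing 1a and 1b, so it rested on the array that stood apart.

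Other blood genes were read as a second view of the blood in the samples, though their restriction to blood was not tested. Of 27 red cell markers, 6 were on the array and 4 tested. DMTN, the red cell membrane protein dematin, read 2406 and 2911 in control and 834, 812 and 2246 in failing samples, lower on every failing array. Its log2 fold change was −1.20 ± 0.54 (SE, limma adjusted p = 0.508), opposite in sign to that of HBB. TMOD1, a capper of actin filaments in red cells and in heart muscle, had 1.04 ± 0.71, SPTB (beta spectrin) −1.87 ± 1.83 and ADD2 (beta adducin) −0.28 ± 1.76, all with overlapping groups. SPTB and ADD2 were below 0 on failing 2a, where the floor sets their size. The erythroid ankyrin gene ANK1 was below the floor on all arrays. The summed red cell signal was 4158 to 4270 in control and 2748 to 3589.5 in failing samples, a difference that came from DMTN. The other 5 markers summed to 1864 and 1247 in control and 1915, 2146 and 1343 in failing samples, which overlap. The median log2 fold change of the 4 tested markers was −0.74, and 0.31 without failing 2a, so its sign rested on that array.

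White cell and platelet markers were mostly too dim to test. Of 31, 7 were on the array and 1 was tested, the neutrophil and monocyte gene S100A9, with 231 and 118 in control and 160, 47 and 574 in failing samples. The scavenger receptor gene CD163 of macrophages was below the floor on all arrays, and the summed signal ran from 408 to 529 in control and from 167 to 3191 in failing samples. Its highest value was on failing 2a, where the lysozyme gene LYZ read 1697 against 13 to 91 on the other arrays. The hemoglobin probe sets differed in this. The brighter HBB probe set was highest on failing 1a and the dimmer on failing 2a (1427). HBA1 was highest on control 1a (4297) and, among the failing arrays, on failing 2a (3365). Plasma protein genes, made in liver, numbered 3 on the array and 2 tested, AHSG (0.09 ± 0.52) and A2M (0.20 ± 1.18).

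Markers of the vessel lining were counted beside HBB, since blood lies within vessels. The log2 fold changes of the 7 tested endothelial markers ran from 0.11 to 2.40 (median 0.91), and 4 of the 7 lay above control on all failing arrays, against 19.5% of all genes, while TEK, FLT1 and ENG overlapped. None passed the adjusted threshold in limma. The water channel gene AQP1, which red cells also carry, read 415 and 1108 in control and 1479, 1753 and 4270 in failing samples, and von Willebrand factor, VWF, had 0.86 ± 0.41 (SE). The other tested probe set of ENG, an endothelial receptor, was far below its first in direction, at −2.61 against 0.11. The summed endothelial signal was 5621 to 6801 in control and 7781 to 16181 in failing samples, while PECAM1 was too dim to be tested. The part of vessel content in the HBB result was not tested.

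Heme and iron genes serve both proteins, since each chain needs heme. Of 28, 9 were on the array and 7 tested, with a median log2 fold change of 0.34, 6 above 0 and 1 below, where 40.4% of all genes were below 0. None passed the adjusted threshold in limma or stood at an unadjusted p under 0.05, and 2 were higher on all failing arrays, against 19.5% of all genes. These were PCBP2, an iron chaperone and RNA-binding protein (0.34 ± 0.19, SE), and FTL, the ferritin light chain that stores iron (0.26 ± 0.20), whose other probe set went down. Among the rest of the 5 brightest, TSPO had 0.28 ± 0.35 with its other probe set at −0.13, PCBP1 −0.40 ± 0.68 and the heme synthesis gene UROS 0.64 ± 0.81. BLVRB, a biliverdin reductase, had 0.97 ± 0.89 with its other probe set at −1.96. The first enzyme of heme synthesis in non-erythroid cells, ALAS1, had 0.49 ± 1.06, and the last, FECH, was too dim to be tested. TFRC, the transferrin receptor that takes iron into red cell precursors and other cells, read 223 and 338 in control and was below the floor on all failing arrays.

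**Figure D4:**
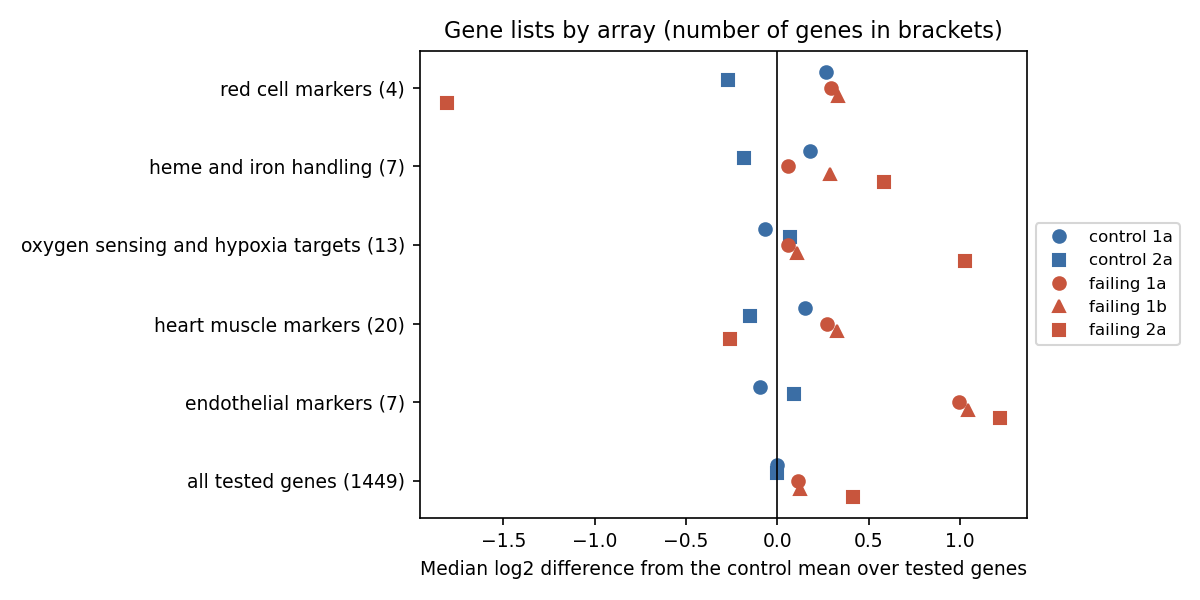
Median log2 difference from the control mean over the tested genes of 5 lists and over all tested genes, per array (blue, control; red, failing; the number of genes in brackets). Endothelial markers lie near or above 1 on all failing arrays, heart muscle and red cell markers overlap with control, and failing 2a stands apart in the red cell, oxygen and all-gene rows. In the heart muscle row failing 2a lies below 0, while failing 1a and 1b lie above it.

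The genes whose pattern over the 5 arrays was nearest to the members were found by the root mean square difference of centred log2 intensities, a measure that carries no test. For MB it was 0.02 with DCTN3, a dynactin subunit, then 0.08 with PSMB3, a proteasome subunit, and 0.09 with the ribosomal protein gene RPL21. NDUFA7, S100A6, CD99, RPL31 and SLC25A4, the heart isoform of the mitochondrial ADP and ATP carrier, followed, up to 0.13. All 8 were lower on all failing arrays, which follows from choosing them by the pattern of MB and is no separate result. In all, 37 genes lay within 0.2 of MB. DCTN3 read 7470 and 5742 in control and 4672, 5021 and 3927 in failing samples. Its other tested probe set was also lower, by a log2 of −2.83 on floored values.

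For HBA1 the nearest was MSRB2, a mitochondrial methionine sulfoxide reductase, at 0.10, followed by CEBPD at 0.12, CYB561D2 at 0.14, NFKBIA at 0.15, HBP1, ZNF33A, ATG4D and ADD3, the last at 0.20. These 8 genes share the high control 1a and low control 2a of HBA1, and their groups overlapped, which again follows from how they were chosen. The other probe sets of CEBPD and HBP1 went opposite to the first. Only 7 genes lay within 0.2 of HBA1. HBB was far from it, at 0.83 for the brighter and 1.24 for the dimmer probe set, and the 2 HBB probe sets were 1.19 apart. The median distance of all tested genes from HBA1 was 0.68. MB, at 0.45, was nearer to HBA1 than either HBB probe set was. This measure also grows with the size of a probe set's own changes. From lowest to highest array MB spanned 1.86-fold, and the brighter and dimmer HBB probe sets 3.14-fold and 8.24-fold. The order therefore does not show that MB follows HBA1.

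**Figure D5:**
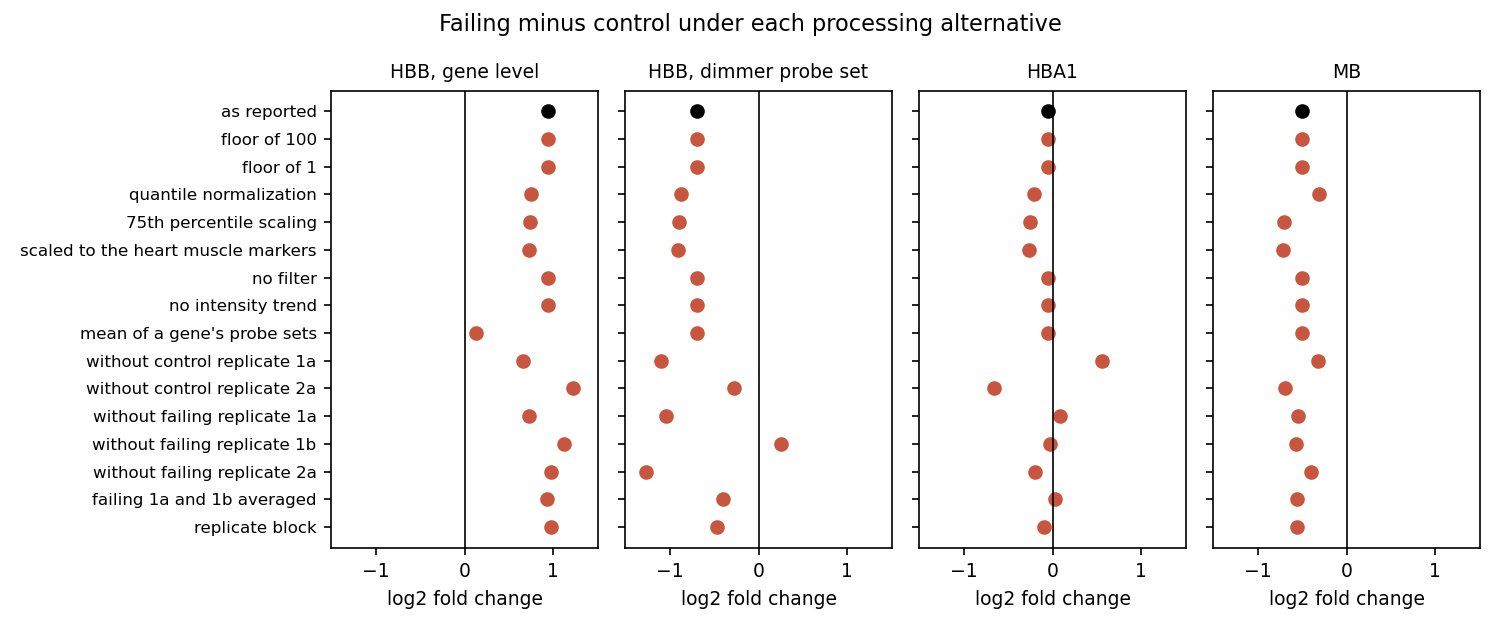
Log2 fold change, failing minus control, of HBB, its dimmer probe set, HBA1 and MB as reported (black) and under each of 15 processing alternatives (red). HBB stays above 0 and MB below 0 in all 15, while HBA1 and the dimmer HBB probe set lie on both sides of 0.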

How the data were processed

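The deposited values are linear intensities, 1 for each array and probe set. Software, scanner and normalization are not given in the sources used here. The intensities share a trimmed mean of 800 per array and are below 0 for 34.7% to 39.9% of probe sets. Columns of other samples numbered 0. The 52 array control probe sets were left out. Symbols came from the platform annotation (1 symbol for 3724 probe sets, several for 72, none for 805), and probe sets with several were not named. Values under 20 were set to that floor before taking log2. Probe sets were tested at or above the median mean log2 intensity of 7.13 (140.1), 2301 in all. The brightest stood for its gene, which left 1449 genes. Failing was compared with control by two-sided moderated tests of limma 3.58.1 (trend on intensity) under R 4.3.3, with Benjamini-Hochberg adjustment over all features. The fit was tested on simulated data. Errors are SDs of intensities or SEs of log2 fold changes. No fold is given where an array was below the floor.

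The members and gene lists were chosen with earlier results of these data known. Named genes were the members, the 8 genes nearest in pattern to the brightest hemoglobin probe set and to MB, listed genes past the threshold, and up to 5 brightest tested genes per list. Others were named after their values were seen. The fibroblast list (10 tested, median log2 fold change 0.37) and the adipose list (4 tested, 0.10) had 0 members past the threshold in limma, with 2 and 0 at an unadjusted p under 0.05. None of the 9 other globins had a probe set of its own symbol alone. Probe sets annotated to both gamma globin symbols, HBG1 and HBG2, were on the array. They were left out because the rule asked for a single symbol.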

Additional observations from a re-analysis of the deposited data

How the results depend on the processing

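HBB stayed above 0 (log2 fold change 0.13 to 1.23) and MB below 0 (−0.72 to −0.31) in all 15 alternatives, and in none did a member pass the adjusted threshold (adjusted p 0.319 to 0.958 for HBB and 0.242 to 0.913 for MB). HBA1 ranged from −0.65 to 0.56 when 1 array was left out, and was 0.027 with failing 1a and 1b averaged. The dimmer HBB probe set ranged from −1.27 to 0.25 when 1 array was left out. A fit without 1 control assumes that the lone control varies like the failing arrays. The number of genes called, 1 as reported, was 0 with a floor of 1, with quantile normalization, with the mean of a gene's probe sets and with failing 1a and 1b averaged. It was 2 with 75th percentile scaling, 3 without an intensity trend, 5 without the filter, and 0 to 12 when 1 array was left out. Genes at an unadjusted p under 0.05 numbered 152 as reported, 98 with failing 1a and 1b averaged and 96 to 234 when 1 array was left out. With the title number as a replicate block, HBB had 0.97, HBA1 −0.09, the dimmer HBB probe set −0.46 and MB −0.56, with 1 gene called. Deviations of same-numbered arrays had an r across genes of −0.02, 0.04 and 0.01. With 2 controls the control deviations mirror each other, so these r values cannot tell whether same-numbered arrays share more than a number. The cause of these differences was not tested.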
